A study of Mus musculus with 6 samples.

Results

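The genes described are 32 mouse genes of cholesterol synthesis and transport, listed by their known roles. The list was chosen with earlier results of these data known. Each gene was represented by the probe set of highest mean over the arrays among those that the platform annotation gives to that gene alone. Of the 32 genes, 30 had such a probe set and all 30 were tested, among 14477 genes tested in all; Soat1 and Acat2 had none. The study compared testes of 3 inbred strains, AKR/N, MRL/MpJ+/+ (hereafter MRL/MpJ) and C57BL/6, in mice that were all 8 weeks old and without any treatment named in the labels. Each strain was represented by 2 mice, and total RNA of each was measured on its own GeneChip array, which gives 6 arrays.

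Cells make cholesterol from acetyl-CoA through mevalonate, isoprenoids, squalene and a chain of sterol intermediates, and they also take it up from lipoproteins and release it through ABC transporters. When sterol in the endoplasmic reticulum is low, Scap escorts the SREBP transcription factors to the Golgi, where they are released to switch on most enzymes of the pathway, and the Insig proteins hold them back when sterol is high. In the testis, Leydig cells turn cholesterol into testosterone, and germ cells and Sertoli cells use it for membranes and as a source of signalling sterols.

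The promoters are shown because the synthesis genes share a known sequence feature there, the CCAAT box bound by NF-Y, which works beside the sterol regulatory element bound by SREBP. RefSeq promoter windows of mouse build GRCm38.p6 were found for 26 of the 32 genes, and the 250 bases before the start were searched on both strands. A gene with several windows was counted as holding a motif if any window held it. CCAAT was present for 21 of 26 genes (80.8%), against 37.5% of 27018 genes in the table and 39.5% of 17486 coding genes. The genes without it were Acat2, Scap, Abca1, Apoe and Lipe. The sterol regulatory element core TCACNCCAC was present for 2 of 26 genes (7.69%), Hmgcs1 and Stard3, against 1.23% of all genes. A match describes letters only. The 6 windows below belong to Hmgcs1, which holds both motifs, and to 5 enzymes whose brightest probe set differed from C57BL/6 in at least 1 strain. Idi1, which differed only between MRL/MpJ and AKR/N, is not shown. Letters run 5′ to 3′ in the direction of the gene, and capitals mark CCAAT or its reverse complement, and in Hmgcs1 also TCACNCCAC.
Hmgcs1, chr13:119690101-119690350, plus strand: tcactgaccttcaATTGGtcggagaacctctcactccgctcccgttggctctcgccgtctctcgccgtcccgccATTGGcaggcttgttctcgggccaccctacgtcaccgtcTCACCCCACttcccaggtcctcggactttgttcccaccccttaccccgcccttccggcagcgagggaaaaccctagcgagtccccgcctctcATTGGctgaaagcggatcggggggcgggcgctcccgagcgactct
Tm7sf2, chr19:6067851-6068100, minus strand: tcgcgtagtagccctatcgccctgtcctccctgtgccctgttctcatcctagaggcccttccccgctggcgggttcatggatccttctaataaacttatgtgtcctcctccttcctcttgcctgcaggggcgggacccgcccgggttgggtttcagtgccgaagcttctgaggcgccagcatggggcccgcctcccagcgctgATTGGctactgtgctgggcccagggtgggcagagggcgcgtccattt
Msmo1, chr8:64733579-64733828, minus strand: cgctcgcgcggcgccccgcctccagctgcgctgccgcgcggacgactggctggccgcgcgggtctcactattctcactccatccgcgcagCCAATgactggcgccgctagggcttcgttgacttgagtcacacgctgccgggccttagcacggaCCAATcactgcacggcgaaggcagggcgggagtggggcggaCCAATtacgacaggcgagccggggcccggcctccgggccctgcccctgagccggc
Nsdhl, chrX:72918271-72918520, plus strand: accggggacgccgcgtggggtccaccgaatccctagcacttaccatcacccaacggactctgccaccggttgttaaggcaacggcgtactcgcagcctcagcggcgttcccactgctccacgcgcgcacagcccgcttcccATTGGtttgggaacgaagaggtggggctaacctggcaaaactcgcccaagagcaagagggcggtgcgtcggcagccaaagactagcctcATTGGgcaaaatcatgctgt
Ebp, chrX:8193513-8193762, minus strand: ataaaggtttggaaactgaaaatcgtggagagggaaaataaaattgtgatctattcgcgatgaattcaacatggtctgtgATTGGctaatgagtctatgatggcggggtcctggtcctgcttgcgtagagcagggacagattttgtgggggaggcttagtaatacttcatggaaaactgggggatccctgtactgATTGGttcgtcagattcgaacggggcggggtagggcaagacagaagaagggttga
Sc5d, chr9:42264301-42264550, minus strand: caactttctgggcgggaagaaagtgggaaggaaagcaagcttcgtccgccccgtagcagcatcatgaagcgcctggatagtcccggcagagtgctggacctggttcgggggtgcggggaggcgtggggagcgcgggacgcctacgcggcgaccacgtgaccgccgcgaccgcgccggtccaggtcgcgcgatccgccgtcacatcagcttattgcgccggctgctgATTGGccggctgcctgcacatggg

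In the Hmgcs1 window the sterol regulatory element core began 137 bases before the start, between CCAAT boxes at 176 and 45 bases. Msmo1 held 3 CCAAT boxes, Nsdhl and Ebp 2 each, and Tm7sf2 and Sc5d 1 each.

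The intensities are linear and share a trimmed mean of 125.001 on every array, with medians of 28.03 to 30.71 units. Pearson correlations across probe sets were 0.979 to 0.985 within a strain and 0.967 to 0.979 between strains. The spermatid protamine genes Prm1 and Prm2, which mark testis, read at least 7370 units on every array. Values are intensities per array, or means ± SD with n = 2 mice, and differences are given as log2 fold changes of intensity + 16 with their standard error (SE), a scale that understates the change of dim genes. Folds in the text are the same values without the log, so they too are of intensity + 16 and not ratios of the printed intensities. The p-values are limma's, adjusted by Benjamini-Hochberg over all 29692 probe sets tested, and a difference was called at an adjusted p under 0.05. Precision is limited by the number of arrays. In whole testes fewer cells of a type and less RNA per cell cannot be told apart.

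By strain mean, testes of C57BL/6 had the lowest signal for 12 of 17 tested synthesis enzymes and for 18 of all 30 tested genes. This ranking counts differences of any size, such as 0.02 for Npc2, and was not made over all genes. Msmo1, Nsdhl and Tm7sf2, enzymes that turn lanosterol products into cholesterol precursors, were higher in both other strains, and Sc5d, a desaturase of the same stretch, was lower in both on its brightest probe set. Abca1, the exporter that loads cholesterol onto lipoproteins, was higher in MRL/MpJ than in either other strain. Apoe, an apolipoprotein of the particles that carry cholesterol between cells, differed between all 3 strains, rising from C57BL/6 through AKR/N to MRL/MpJ. The calls of Msmo1, of Abca1, and of Apoe in MRL/MpJ against C57BL/6 held without any 1 array. Each of the others named here was lost without at least 1 array.

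In MRL/MpJ against C57BL/6, 5 of 30 genes (16.7%) were called higher and 1 (3.33%) lower, where 6.09% of all genes tested were called higher and 6.11% lower. In AKR/N against C57BL/6, 5 of 30 (16.7%) were again called higher and 1 (3.33%) lower, against 6.38% and 5.49% of all genes. In MRL/MpJ against AKR/N, 3 of 30 (10%) were called higher, against 3.67% of all genes. None was called lower by limma in that comparison on its brightest probe set, where 7 of 30 had an unadjusted p under 0.05 in either direction and 5.06% of all genes were called lower. The 8 genes called in at least 1 comparison were Idi1, Tm7sf2, Msmo1, Nsdhl, Ebp, Sc5d, Abca1 and Apoe.

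The median log2 fold change of the 30 genes was 0.20 in MRL/MpJ against C57BL/6, 0.19 in AKR/N against C57BL/6 and -0.05 in MRL/MpJ against AKR/N. Over all 14477 genes the medians were 0.01, 0.01 and 0.01. Fold changes were above 0 for 23, 22 and 12 of the 30 genes (76.7%, 73.3% and 40%), against 51.4%, 50.9% and 51.2% of all genes. The comparisons with C57BL/6 share its 2 arrays, so their values are given side by side and not as 2 separate observations. The arrays of the compared strains did not overlap for 18, 19 and 13 genes (60%, 63.3% and 43.3%), against 55.6%, 54.7% and 54.6% of all genes. Leaving out MRL/MpJ replicate 1 lowered the count of genes called in MRL/MpJ against C57BL/6 from 6 to 3. Leaving out C57BL/6 replicate 2 or AKR/N replicate 2 lowered that in AKR/N against C57BL/6 from 6 to 3 each. Leaving out any 1 of the AKR/N or MRL/MpJ arrays left 1 call in MRL/MpJ against AKR/N.

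**Figure D1:**
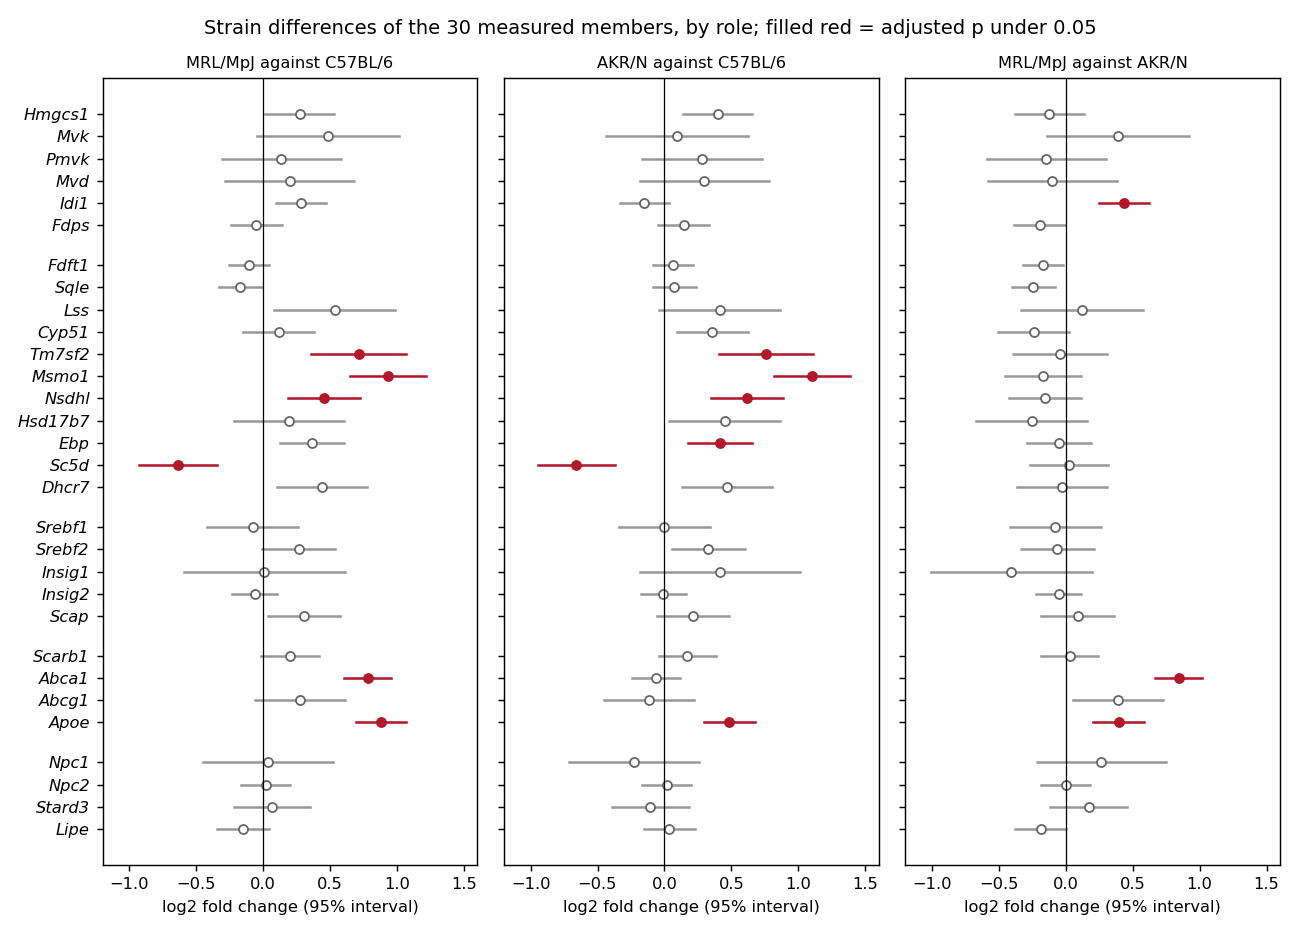
Log2 fold changes of intensity + 16 (horizontal axis, with 95% intervals) of the 30 tested genes in the 3 strain comparisons, with filled red points for an adjusted p under 0.05. Most points of the enzymes lie to the right of 0 in both comparisons with C57BL/6, Sc5d lies to the left in both, and Abca1 and Apoe stand to the right in both panels of MRL/MpJ.

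The enzymes up to farnesyl diphosphate, which build isoprenoid units from acetyl-CoA, had 6 of 7 members tested. By limma, 0 of 6 were called in MRL/MpJ against C57BL/6 (2 at an unadjusted p under 0.05) and 0 of 6 in AKR/N against C57BL/6 (1 at an unadjusted p under 0.05), with medians of 0.24 and 0.21 and 5 of 6 above 0 in each, where 51.4% and 50.9% of all genes were above 0. In MRL/MpJ against AKR/N 1 of 6 was called, Idi1, which was higher (3.67% of all genes were called higher). The median there was -0.11 and 2 of 6 were above 0, against 51.2% of all genes.

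Idi1, the isomerase that interconverts the isoprenoid building blocks, read 377 and 387 units in C57BL/6, 331 and 355 in AKR/N and 460 and 478 in MRL/MpJ. The MRL/MpJ arrays were the highest and the AKR/N arrays the lowest, with no overlap between any strains. The strain means were 382.0 ± 6.93, 343.0 ± 16.7 and 468.9 ± 13.1 units. MRL/MpJ exceeded AKR/N by 0.43 (SE 0.0841, adjusted p = 0.0119), and its difference from C57BL/6 was 0.28 (adjusted p = 0.0585). A dimmer probe set of Idi1 gave -0.05 (SE 0.147, adjusted p = 0.877) for MRL/MpJ against C57BL/6, and the mean of its probe sets 0.12 (adjusted p = 0.549). For MRL/MpJ against AKR/N these gave 0.18 (SE 0.147, adjusted p = 0.555) and 0.31 (adjusted p = 0.117). The call was also lost without AKR/N replicate 1 (adjusted p = 0.0985), AKR/N replicate 2 (0.0536), MRL/MpJ replicate 1 (0.0587) or MRL/MpJ replicate 2 (0.0967), and with no variance trend (0.13). Summed intensities of 8 spermatocyte markers stood in the same strain order, at 6610.0 to 6837 units in C57BL/6, 4766 to 5733 in AKR/N and 6899 to 7602 in MRL/MpJ. Not every marker did: Sycp1 (means 1233, 578 and 949.4 units in C57BL/6, AKR/N and MRL/MpJ) and Spo11 (788.2, 454.8 and 579.8) were highest in C57BL/6. Hormad1 (395.6, 494.9 and 751) and Meiob (131.9, 242.6 and 222.7) were lowest in C57BL/6. Of the 8 markers, 7 were called higher in MRL/MpJ against AKR/N (3.67% of all genes), and their part in the Idi1 difference was not tested.

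Hmgcs1, which makes the HMG-CoA that feeds the mevalonate pathway, read 469 and 531 units in C57BL/6, 595 and 737 in AKR/N and 559 and 659 in MRL/MpJ. Every array of the other strains lay above both C57BL/6 arrays, while those of AKR/N and MRL/MpJ overlapped. AKR/N against C57BL/6 was 0.40 (SE 0.117, adjusted p = 0.0571) and MRL/MpJ against C57BL/6 was 0.27 (SE 0.117, adjusted p = 0.179), neither past the threshold. All 4 other probe sets of Hmgcs1 went the same way in all 3 comparisons, and 2 of them passed the threshold in AKR/N against C57BL/6 (0.51 with adjusted p = 0.0191, and 0.59 with adjusted p = 0.0158). Fdps, which makes farnesyl diphosphate, differed by 0.14 in AKR/N against C57BL/6 (adjusted p = 0.354) and by -0.19 in MRL/MpJ against AKR/N (adjusted p = 0.234). Mvk, the mevalonate kinase, differed by 0.49 in MRL/MpJ against C57BL/6 with a 95% interval of -0.04 to 1.02 (adjusted p = 0.248). The kinase Pmvk and the decarboxylase Mvd had adjusted p of at least 0.449 in all 3 comparisons.

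The 11 enzymes from squalene to cholesterol were all tested and held most of the calls. In MRL/MpJ against C57BL/6, 3 were called higher and 1 lower (6.09% and 6.11% of all genes), with 8 of 11 above 0 (51.4% of all genes) and a median of 0.36. In AKR/N against C57BL/6, 4 were called higher and 1 lower (6.38% and 5.49% of all genes), with 10 of 11 above 0 (50.9% of all genes) and a median of 0.41. Between MRL/MpJ and AKR/N limma called 0 of 11 (2 at an unadjusted p under 0.05), the median was -0.16 and 2 of 11 were above 0 (51.2% of all genes). For all 17 synthesis enzymes together, the median of the gene-centred log2 values was -0.16 and -0.17 on the C57BL/6 arrays, 0.13 and 0.12 on the AKR/N arrays, and -0.01 and 0.17 on the MRL/MpJ arrays. Both C57BL/6 arrays were the lowest, and the MRL/MpJ arrays stood apart from each other.

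**Figure D2:**
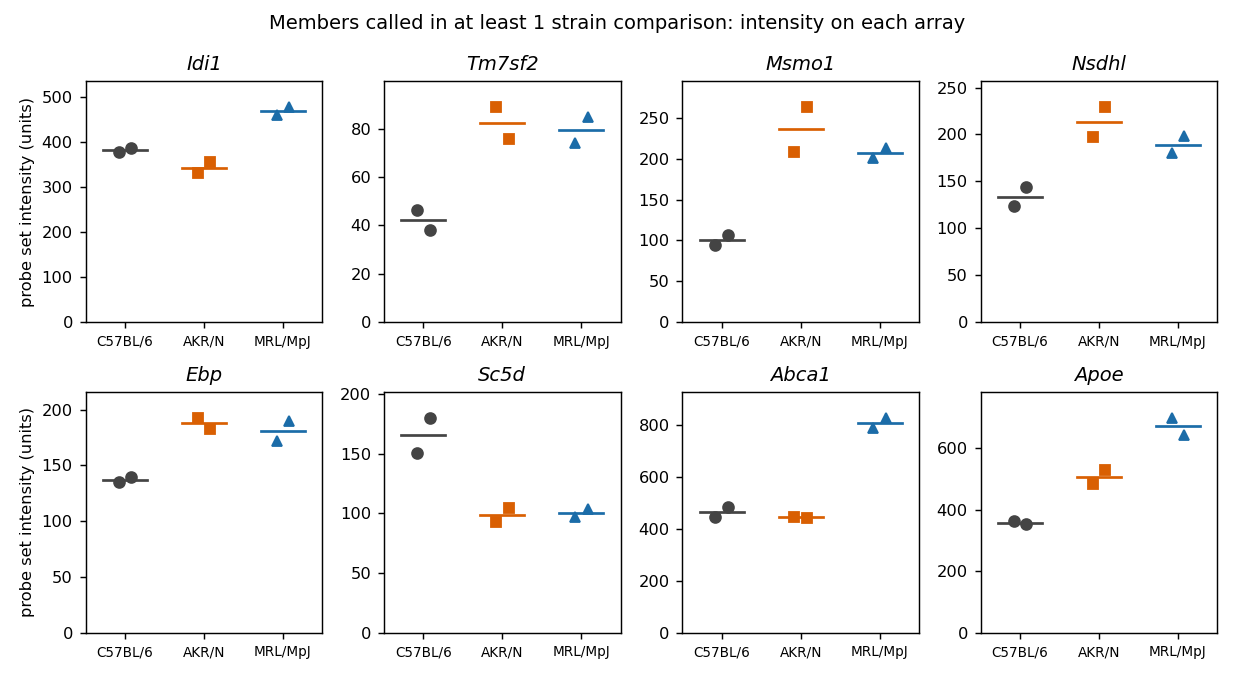
Intensity on each array (vertical axis, linear units from 0) of the 8 genes called in at least 1 comparison, by strain, with a bar at the mean of each strain's 2 arrays. C57BL/6 is lowest for Tm7sf2, Msmo1, Nsdhl, Ebp and Apoe and highest for Sc5d, and MRL/MpJ is highest for Abca1, Apoe and Idi1.

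Msmo1, the oxidase that starts removal of the methyl groups at carbon 4 of the sterol, read 94.7 and 107 units in C57BL/6, 208 and 263.5 in AKR/N and 201 and 213 in MRL/MpJ. Every AKR/N and MRL/MpJ array lay well above both C57BL/6 arrays, and those 2 strains overlapped. It was 2.15-fold higher in AKR/N (log2 fold change 1.10, SE 0.128, adjusted p = 0.000361) and 1.91-fold higher in MRL/MpJ (0.93, SE 0.128, adjusted p = 0.0011) than in C57BL/6. MRL/MpJ against AKR/N was -0.17 with a 95% interval of -0.45 to 0.12 (adjusted p = 0.537). Both calls against C57BL/6 held without any 1 of the 6 arrays. They did not hold for the mean of its probe sets (0.41 and 0.54, adjusted p = 0.197 and 0.0953 in MRL/MpJ and AKR/N), which includes a probe set too dim to be tested.

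Nsdhl, the dehydrogenase that acts with Msmo1 in the same demethylation, read 123.5 and 144.0 units in C57BL/6, 197 and 229 in AKR/N and 180.1 and 198 in MRL/MpJ. Again the 4 arrays of the other strains lay above both of C57BL/6. Nsdhl was higher in AKR/N by 0.61 (SE 0.122, adjusted p = 0.00959) and in MRL/MpJ by 0.46 (SE 0.122, adjusted p = 0.0389). The AKR/N call was lost without C57BL/6 replicate 1 (adjusted p = 0.0522) or AKR/N replicate 2 (0.1), and with no variance trend (0.0725). The MRL/MpJ call was lost without C57BL/6 replicate 1 (0.16), C57BL/6 replicate 2 (0.0501), AKR/N replicate 2 (0.0506), MRL/MpJ replicate 1 (0.0991) or MRL/MpJ replicate 2 (0.203). It was lost as well with quantile normalization (0.0662), no filter on low intensities (0.0664), no variance trend (0.136) and only the arrays compared (0.0522). Hsd17b7, the ketoreductase that completes this demethylation, is among the genes called in no comparison.

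Tm7sf2, a sterol reductase that acts just after the demethylation by Cyp51, was dim in C57BL/6. It read 46.5 and 38.0 units there, 89.0 and 75.8 in AKR/N and 73.9 and 84.7 in MRL/MpJ. The C57BL/6 arrays lay below all others, and AKR/N and MRL/MpJ overlapped. Tm7sf2 was higher in AKR/N by 0.76 (SE 0.159, adjusted p = 0.0131) and in MRL/MpJ by 0.71 (SE 0.159, adjusted p = 0.0176), with a 95% interval of -0.40 to 0.31 for the difference between these 2 strains. The AKR/N call was lost without C57BL/6 replicate 2 (0.0791) or AKR/N replicate 1 (0.115). The MRL/MpJ call was lost without C57BL/6 replicate 2 (0.0872), MRL/MpJ replicate 1 (0.0576) or MRL/MpJ replicate 2 (0.122), and with no variance trend (0.0542).

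Ebp, the isomerase that shifts a ring double bond of the sterol, read 134.7 and 139.2 units in C57BL/6, 192.8 and 183.0 in AKR/N and 171.7 and 189.9 in MRL/MpJ. Both C57BL/6 arrays were again below the other 4. AKR/N exceeded C57BL/6 by 0.41 (SE 0.108, adjusted p = 0.0358), a call lost without any 1 of the 6 arrays (adjusted p from 0.0501 to 0.19). It was lost as well with no filter (0.0516), no variance trend (0.103) and only the arrays compared (0.0515). MRL/MpJ against C57BL/6 was 0.36 (SE 0.108, adjusted p = 0.0602).

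Sc5d, the desaturase that follows Ebp, went the other way. It read 150.4 and 180.1 units in C57BL/6, 92.96 and 104.2 in AKR/N and 96.84 and 103.9 in MRL/MpJ, and both C57BL/6 arrays were above the other 4. On this probe set Sc5d was lower than in C57BL/6 by 0.66 in AKR/N (log2 fold change -0.66, SE 0.131, adjusted p = 0.00965) and by 0.63 in MRL/MpJ (-0.63, SE 0.131, adjusted p = 0.0116). Of the other probe sets of Sc5d, 1 of 2 had the same sign and neither was called. One of them was 0.53 in AKR/N (SE 0.193, adjusted p = 0.118) and 0.38 in MRL/MpJ (SE 0.193, adjusted p = 0.267), and another was -0.04 (adjusted p = 0.947) and -0.54 (SE 0.238, adjusted p = 0.199). The mean of the probe sets gave -0.06 in AKR/N (adjusted p = 0.881) and -0.27 in MRL/MpJ (adjusted p = 0.341), so the direction for Sc5d as a gene is uncertain. The call was also lost without C57BL/6 replicate 2 (0.0791 in AKR/N, 0.0802 in MRL/MpJ), without AKR/N replicate 1 in AKR/N (0.0803) and without MRL/MpJ replicate 1 in MRL/MpJ (0.082), and in both with no variance trend (0.0587 and 0.062).

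**Figure D3:**
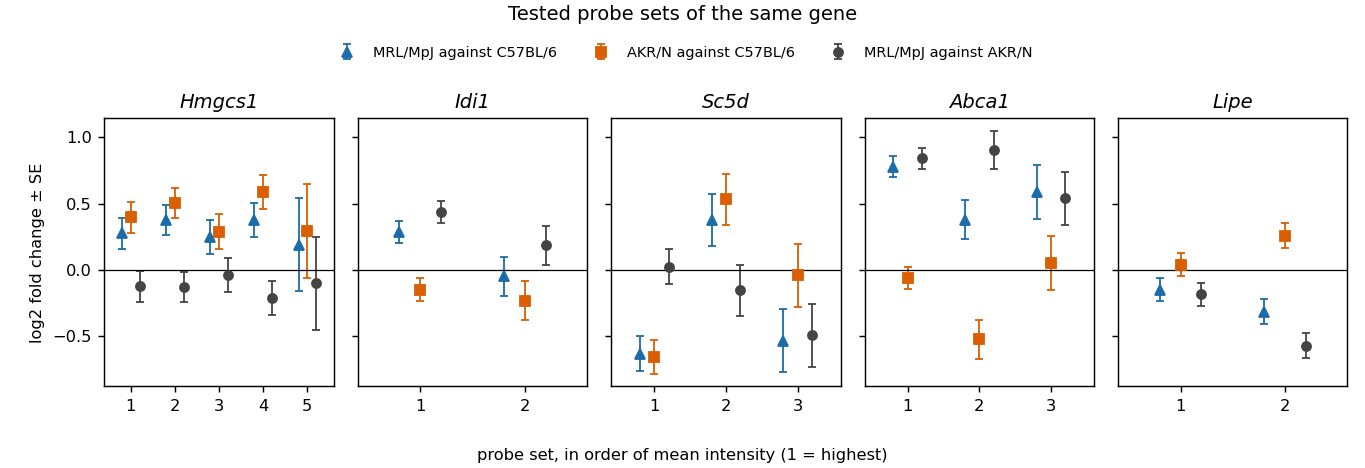
Log2 fold changes of intensity + 16 with standard errors for each tested probe set of Hmgcs1, Idi1, Sc5d, Abca1 and Lipe, in the 3 comparisons. The 5 probe sets of Hmgcs1 lie on the same side of 0 within each comparison, and the 3 of Sc5d lie on both sides of 0 in both comparisons with C57BL/6.

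The other 6 enzymes of this stretch were called in no comparison on their brightest probe set. Dhcr7, which reduces 7-dehydrocholesterol to cholesterol, read 98.8 and 77.9 units in C57BL/6, 122 and 133 in AKR/N and 110 and 141 in MRL/MpJ, and its differences from C57BL/6 were 0.47 (adjusted p = 0.0844) and 0.44 (adjusted p = 0.101). Its C57BL/6 arrays lay below the other 4. Cyp51, the lanosterol demethylase, differed by 0.36 in AKR/N against C57BL/6 (adjusted p = 0.0951) and by 0.12 in MRL/MpJ against C57BL/6 (adjusted p = 0.612). Sqle, the squalene epoxidase, was lowest in MRL/MpJ, at 678 and 731 units against 794 and 795 in C57BL/6 and 835 and 838 in AKR/N, with -0.24 for MRL/MpJ against AKR/N (adjusted p = 0.0765). Fdft1, which makes squalene, Lss, which closes the sterol rings, and Hsd17b7 had adjusted p of at least 0.137 throughout on that probe set. A second probe set of Fdft1, of similar brightness, was lower in MRL/MpJ than in C57BL/6 (-0.27, SE 0.0741, adjusted p = 0.0466), and a dimmer one of Hsd17b7 gave 0.66 there (SE 0.192, adjusted p = 0.0558).

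Leydig cell markers differed between the strains along with these enzymes. Of 8 markers, 5 had their own probe set and were tested, and Insl3, Hsd3b6 and Lhcgr could not be named. The summed intensity of the 5 was 3321 to 3417 units on the C57BL/6 arrays, 5414 to 5938 on the AKR/N arrays and 5478 to 5676 on the MRL/MpJ arrays. By limma 4 of 5 were called higher in each of AKR/N and MRL/MpJ against C57BL/6 (6.38% and 6.09% of all genes), among them Cyp17a1, an enzyme of androgen synthesis, at 1943 and 1800, 3203 and 3504, and 3237 and 3430 units. C57BL/6 was lowest for the sum and for Cyp17a1, Hsd17b3 and Star. Cyp11a1, which starts steroid synthesis, had means of 628.9, 998.9 and 602.2 units in C57BL/6, AKR/N and MRL/MpJ, and Hsd3b1, a later enzyme of it, 507.5, 493.7 and 890.9 units, so C57BL/6 was not lowest for these. Spermatogonial sums (6 markers) were lowest in C57BL/6, at 658.7 to 712.4 units against 759.9 to 776.2 in AKR/N and 791.8 to 799.2 in MRL/MpJ. Sertoli cell sums (7 markers) were 1117 to 1203, 1371 to 1428 and 1154 to 1187 units in C57BL/6, AKR/N and MRL/MpJ. Adipose sums, given below, were lowest in C57BL/6 too. The sums of spermatocytes, spermatids, macrophages, endothelium and peritubular muscle were not. The part of Leydig cells or these other cells in the enzyme differences was not tested.

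**Figure D4:**
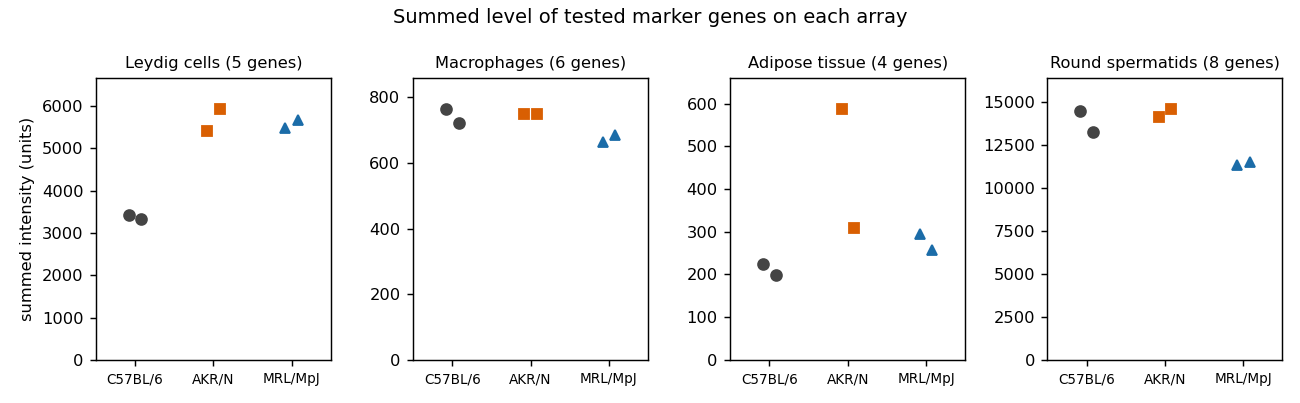
Summed intensities per array (linear units) of 5 Leydig cell, 6 macrophage, 4 adipose and 8 round spermatid markers by strain. Leydig sums are lowest in C57BL/6 (3321 to 3417), round spermatid sums are lowest in MRL/MpJ (11300.0 to 11490), and macrophage sums lie between 664.5 and 766.2 on all 6 arrays.

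The 5 sterol sensors and transcription factors were called in no comparison by limma, with 1, 1 and 0 of 5 at an unadjusted p under 0.05. Srebf2, the SREBP gene most tied to cholesterol synthesis, read 113 and 118 units in C57BL/6, 163 and 137 in AKR/N and 135 and 150.0 in MRL/MpJ. Both C57BL/6 arrays were the lowest, with differences of 0.33 in AKR/N (SE 0.124, adjusted p = 0.132) and 0.27 in MRL/MpJ (SE 0.124, adjusted p = 0.22). Scap, the sterol-sensing escort of SREBP, differed from C57BL/6 by 0.30 in MRL/MpJ (adjusted p = 0.155) and by 0.21 in AKR/N (adjusted p = 0.325). Insig1, itself a target of SREBP, was dim and scattered, at 31.5 and 30.9 units in C57BL/6, 62.8 and 34.3 in AKR/N and 43.6 and 21.9 in MRL/MpJ, and its 95% intervals reached from -0.59 to 0.61 for MRL/MpJ against C57BL/6. Srebf1 and Insig2 had adjusted p of at least 0.669 throughout on their brightest probe set. The other 2 probe sets of Insig2 had the opposite sign in MRL/MpJ against C57BL/6, at 0.30 (SE 0.0857, adjusted p = 0.054) and 0.08 (adjusted p = 0.717) against -0.06.

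Among the 4 genes of uptake and efflux, Abca1 and Apoe were called and, on their brightest probe sets, Scarb1 and Abcg1 were not. On these probe sets all 4 fold changes were above 0 in MRL/MpJ against C57BL/6 (median 0.53), where 51.4% of all genes were. The same held in MRL/MpJ against AKR/N (median 0.39, 51.2% of all genes above 0), although Scarb1 was near 0 there (0.03, SE 0.0965). In AKR/N against C57BL/6, 2 of 4 were above 0 (median 0.05, 50.9% of all genes above 0).

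Abca1 read 445 and 487 units in C57BL/6, 448 and 443 in AKR/N and 792 and 830.5 in MRL/MpJ. Both MRL/MpJ arrays stood far above the other 4, among which the strains overlapped. It was 1.72-fold higher in MRL/MpJ than in C57BL/6 (0.78, SE 0.0804, adjusted p = 0.000156) and 1.79-fold higher than in AKR/N (0.84, SE 0.0804, adjusted p = 0.000133), and both calls held without any 1 array and under each alternative processing. AKR/N against C57BL/6 was -0.06 with a 95% interval of -0.24 to 0.11 (adjusted p = 0.699). Both other probe sets of Abca1 were also higher in MRL/MpJ, by 0.38 (adjusted p = 0.137) and 0.59 (adjusted p = 0.0994) over C57BL/6 and by 0.91 (adjusted p = 0.0045) and 0.54 (adjusted p = 0.159) over AKR/N. One of them was lower in AKR/N than in C57BL/6 (-0.53, adjusted p = 0.0453), unlike the brightest.

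Apoe read 362 and 352 units in C57BL/6, 483 and 529.9 in AKR/N and 699 and 644 in MRL/MpJ, without overlap between any strains. The strain means were 357.3 ± 7.06, 506.6 ± 32.8 and 671.5 ± 39.4 units. Apoe was 1.84-fold higher in MRL/MpJ than in C57BL/6 (0.88, SE 0.0853, adjusted p = 9.82e-05), a call that held without any 1 array and under each alternative. It was 1.4-fold higher in AKR/N than in C57BL/6 (0.48, SE 0.0853, adjusted p = 0.00497), lost without AKR/N replicate 2 (0.0615) and with no variance trend (0.0796). It was 1.32-fold higher in MRL/MpJ than in AKR/N (0.40, SE 0.0853, adjusted p = 0.02), lost without AKR/N replicate 1 (0.153), AKR/N replicate 2 (0.0617), MRL/MpJ replicate 1 (0.15) or MRL/MpJ replicate 2 (0.0615), and with no variance trend (0.171).

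Markers of macrophages, which also express Abca1 and Apoe, are given beside these values. Of 7 markers 6 were tested, with summed intensities of 722.7 to 766.2 units in C57BL/6, 750.8 to 751 in AKR/N and 664.5 to 684.9 in MRL/MpJ; 1 of 6, Cd14, was called lower in MRL/MpJ against C57BL/6 (6.11% of all genes). Csf1r, the receptor that macrophages depend on, read 161 and 141 units in C57BL/6, 185 and 193 in AKR/N and 163 and 161 in MRL/MpJ. The part of macrophages in the Abca1 and Apoe differences was not tested.

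Scarb1, the receptor that takes up cholesterol esters from HDL, read 656 and 576 units in C57BL/6, 746 and 646 in AKR/N and 740 and 678 in MRL/MpJ. It differed from C57BL/6 by 0.20 in MRL/MpJ (95% interval -0.01 to 0.41, adjusted p = 0.237) and by 0.17 in AKR/N (adjusted p = 0.32). Its other 2 probe sets gave 0.34 (SE 0.0904, adjusted p = 0.0412, past the threshold) and 0.44 (SE 0.133, adjusted p = 0.065) in AKR/N against C57BL/6. In MRL/MpJ against AKR/N, where the brightest gave 0.03, these 2 gave -0.16 (adjusted p = 0.385) and -0.38 (adjusted p = 0.13). Abcg1, which exports cholesterol to HDL, had its 2 highest values in MRL/MpJ, at 71.2 and 69.5 units against 47.4 to 56.9 on the other arrays. Its differences of 0.28 from C57BL/6 (adjusted p = 0.303) and 0.39 from AKR/N (adjusted p = 0.175) did not pass the threshold.

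Of the genes that move cholesterol inside the cell or handle its esters, 4 of 5 were tested and limma called 0 of 4 in each comparison, with 0 of 4 at an unadjusted p under 0.05. Lipe, the hormone-sensitive lipase that frees cholesterol from esters and has a testis form, read 847 and 737.5 units in C57BL/6, 814 and 808 in AKR/N and 677 and 746 in MRL/MpJ. The MRL/MpJ arrays lay below those of AKR/N and overlapped C57BL/6, with -0.19 for MRL/MpJ against AKR/N (adjusted p = 0.259). A second Lipe probe set gave -0.57 in that comparison (SE 0.0956, adjusted p = 0.00538), and with the mean of its probe sets Lipe was called lower there (-0.38, SE 0.0857, adjusted p = 0.0245). Summed intensities of 8 round spermatid markers were also lowest in MRL/MpJ, at 11300.0 to 11490 units against 13220 to 14450 in C57BL/6 and 14130 to 14590 in AKR/N, and 6 of 8 were called lower in MRL/MpJ against AKR/N (5.06% of all genes); their part in the Lipe values was not tested. The 4 tested adipose markers, a tissue that also expresses Lipe, summed to 198.4 to 223.7 units in C57BL/6, 308.5 to 588.8 in AKR/N and 258.1 to 293.9 in MRL/MpJ. Fabp4 (means 7.232, 110.8 and 45.19 units) and Car3 (17.14, 128.2 and 44.15) followed this order, and Adipoq (139.6, 160.3 and 157.3) and Retn (47.07, 49.41 and 29.32) differed less. In AKR/N, replicates 1 and 2 read 172 and 49.55 units for Fabp4 and 191.6 and 64.78 for Car3. The part of adipose tissue in the Lipe values was not tested either. The epididymis markers Lcn5 and Adam7, too dim to be tested, read 117.8 and 63.45 units in AKR/N replicate 1. In AKR/N replicate 2 they read 7.178 and 5.46 units. Rnase10, the epididymis marker that was tested, was highest in C57BL/6. Tm7sf2 and Sc5d lost their AKR/N calls without AKR/N replicate 1. The part of tissue other than testis in the values of that array was not tested.

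Npc1, the late endosomal sterol exporter, lay near or below the array medians on every array, at 18.3 to 28.9 units, so little can be read from its differences (-0.23 to 0.27, adjusted p of at least 0.572). Stard3, which moves sterol between endosomes and the endoplasmic reticulum, differed by at most 0.17 in size (MRL/MpJ against AKR/N, adjusted p = 0.531). Npc2, the soluble partner of Npc1, read 757.4 to 854.2 units over all 6 arrays, and its 95% intervals were -0.17 to 0.20 for both strains against C57BL/6.

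Of a further list of 47 cholesterol genes, 35 were tested. Limma called 4 of 35 higher and 0 lower in MRL/MpJ against C57BL/6 (6.09% and 6.11% of all genes; 12 of 35 at an unadjusted p under 0.05). It called 4 higher and 1 lower in AKR/N against C57BL/6 (6.38% and 5.49%), and 3 higher and 1 lower in MRL/MpJ against AKR/N (3.67% and 5.06%). The medians were 0.12, 0.07 and 0.08. Leaving out 1 array gave between 2 and 5, 0 and 4, and 0 and 4 calls. The called genes were Apoc1, Stard4, Star, Cyb5r3, Cyp27a1, Osbpl9 and Erlin1. With no variance trend, the calls of Apoc1 and Stard4 in MRL/MpJ against C57BL/6 were the only ones of these kept.

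Apoc1, a lipoprotein component encoded beside Apoe, read 141 and 96.3 units in C57BL/6, 194 and 228 in AKR/N and 423 and 326 in MRL/MpJ. The 3 strains did not overlap and stood in the same order as for Apoe. Apoc1 was higher in MRL/MpJ than in C57BL/6 by 1.54 (SE 0.169, adjusted p = 0.000232), a call kept without any 1 array. It was higher in AKR/N than in C57BL/6 by 0.77 (adjusted p = 0.016) and in MRL/MpJ than in AKR/N by 0.77 (adjusted p = 0.0214), and each of these was lost without some arrays (adjusted p up to 0.13 and 0.164).

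Stard4, a soluble sterol carrier and SREBP target, read 65.8 and 66.0 units in C57BL/6, 92.9 and 93.9 in AKR/N and 116.9 and 117.1 in MRL/MpJ. The arrays of a strain lay close together and the strains apart; MRL/MpJ exceeded C57BL/6 by 0.70 (SE 0.126, adjusted p = 0.00572), also without any 1 array, and AKR/N by 0.28 (adjusted p = 0.242). Star, which delivers cholesterol to mitochondria for steroid synthesis and is itself a Leydig marker, read 212 and 151 units in C57BL/6, 287 and 362 in AKR/N and 289.9 and 272 in MRL/MpJ. It was higher in AKR/N by 0.79 (adjusted p = 0.00767) and in MRL/MpJ by 0.60 (adjusted p = 0.0293), and both calls were lost in at least 1 fit without 1 array (adjusted p up to 0.0837 and 0.168).

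Erlin1, an endoplasmic reticulum protein that restrains SREBP, was lowest in AKR/N, at 388 and 393.5 units against 512 and 496 in C57BL/6 and 562 and 536.5 in MRL/MpJ. It was lower than in C57BL/6 by 0.35 (log2 fold change -0.35, adjusted p = 0.0171), and MRL/MpJ exceeded AKR/N by 0.47 (adjusted p = 0.00528); without 1 array the adjusted p rose up to 0.102 and 0.0534. Its strain order was that of the spermatocyte marker sums given with Idi1, though not of each of these markers, and their part in it was not tested. Cyb5r3, the reductase that passes electrons to sterol enzymes, was higher in MRL/MpJ than in C57BL/6 by 0.41 (adjusted p = 0.0223) and than in AKR/N by 0.37 (adjusted p = 0.048). Cyp27a1, a sterol hydroxylase, was higher in AKR/N than in C57BL/6 by 0.51 (adjusted p = 0.0385), and Osbpl9, a sterol-binding protein, was higher in AKR/N than in C57BL/6 by 0.26 (adjusted p = 0.0481) and lower in MRL/MpJ than in AKR/N by 0.28 (-0.28, adjusted p = 0.0452). Each of these calls was lost without at least 1 array, with adjusted p up to 0.158 and 0.286 for Cyb5r3, 0.229 for Cyp27a1, and 0.203 and 0.253 for Osbpl9.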

How the data were processed

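Testis RNA was isolated with Trizol, amplified by one-cycle cDNA synthesis and labelled with biotin, per the labels' protocols. The authors deposited linear intensity values per probe set for 6 arrays; which software summarised them is not given in the sources used, nor are detection calls. From the values, each array shares a mean after trimming 2% at each end. The 64 control probe sets among 45101 were dropped. The fit covered the 29692 others that exceeded their array's 40th percentile on 2 or more arrays. Log2(intensity + 16) was fitted with strain means over all 6 arrays in limma 3.58.1 (R 4.3.3; lmFit, contrasts.fit, eBayes with a trend; 3 residual degrees of freedom). The calculations were tested on data simulated from the fitted model itself. Such data cannot test the assumptions of that model, such as the variance trend. Promoters are RefSeq's, GRCm38.p6.

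The genes, lists and tests were chosen with earlier results of these data known. Genes called in at least 1 comparison are described in full, and of the uncalled ones at most the 3 of each role with the smallest adjusted p. Of the further cholesterol list, the 4 called genes with the smallest adjusted p per comparison are named; Osbpl9 enters through MRL/MpJ against AKR/N, and its call in AKR/N against C57BL/6 is given too.

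Alternatives were quantile normalization, median centring, other filters and pseudocounts, no variance trend, only the arrays compared, the replicate number as a block, the mean of a gene's probe sets, and leaving out each array.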

Additional observations from a re-analysis of the deposited data

How the results depend on the processing

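Without a variance trend, limma called 1212, 1138 and 421 probe sets in MRL/MpJ against C57BL/6, AKR/N against C57BL/6 and MRL/MpJ against AKR/N, instead of 2975, 2960 and 2052. It then called 3, 2 and 1 of the 30 genes, instead of 6, 6 and 3, and 2, 0 and 0 of the 35 further cholesterol genes, where 7 and 6 had an unadjusted p under 0.05 in the last 2 comparisons. With no filter on low intensities, MRL/MpJ against AKR/N had 1327 probe sets called, and the further genes had 3 calls in AKR/N against C57BL/6 and 1 in MRL/MpJ against AKR/N; quantile normalization left 2 of the latter. Fits without 1 array called 1483 to 2545, 1290 to 2607 and 694 to 2191 probe sets, 3 to 6, 3 to 5 and 1 to 3 of the 30 genes, and 2 to 5, 0 to 4 and 0 to 4 of the further genes. The counts of 0 by limma came without C57BL/6 replicate 2 (9 at an unadjusted p under 0.05), AKR/N replicate 2 (10) and MRL/MpJ replicate 1 (6).

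Among the 8 genes called in some comparison and the calls of the 7 further genes, signs turned only in MRL/MpJ against AKR/N, for 3 genes not called there. Sc5d turned from 0.02 to -0.0099 with quantile normalization and -0.21 with the mean of its probe sets, and ranged from -0.047 to 0.094 over the fits without 1 array, below 0 without AKR/N replicate 1 or MRL/MpJ replicate 2. Tm7sf2 ranged from -0.14 to 0.052 over these fits, above 0 without AKR/N replicate 1 or MRL/MpJ replicate 1, and Ebp from -0.12 to 0.015, above 0 without MRL/MpJ replicate 1. The cause of these changes was not tested. Over the alternatives the median of the 30 genes ranged from 0.14 to 0.27, 0.13 to 0.24 and -0.10 to 0.03, and the last of these changed sign. Median centring lowered the share of lower calls from 49.4% to 39.4% and from 49.0% to 39.7% in the comparisons with C57BL/6.

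The replicate numbers share only a number: deviations of replicate 1 correlated at 0.0425 to 0.0493 between strains. With the replicate block, limma called 3510, 3492 and 2549 probe sets, 8, 7 and 3 of the 30 genes and 6, 6 and 4 of the further genes. The intensities carry no detection calls, so the dimmest genes, such as Npc1 and Insig1, are limited by signal over background.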

Other observations

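Apoe lies in RefSeq gene order beside Apoc1, Apoc4 and Apoc2, apolipoprotein genes of lipid transport, and Apoc2 was looked up after its values were seen. Apoc2, the cofactor of lipoprotein lipase, read 418.1 ± 9.82 units in AKR/N, 238.5 ± 12.2 in MRL/MpJ and 4.28 ± 5.06 in C57BL/6 (SD, n = 2 mice each). It was near the bottom of the scale in C57BL/6 alone. Both C57BL/6 arrays lay below the 40th percentile of their array (19.1 and 20.8 units), so no fold change against C57BL/6 is given; MRL/MpJ against AKR/N was -0.77 by limma (adjusted p = 0.0181). Its order of strains thus differs from that of Apoe and Apoc1, which were highest in MRL/MpJ. Apoc4 was too dim to be tested. On the other side of Apoe, Tomm40 of the mitochondrial import pore read 225.0 ± 3.31 units in MRL/MpJ, 208.6 ± 1.13 in AKR/N and 204.8 ± 2.53 in C57BL/6, and was not called (adjusted p of at least 0.468). Nectin2, an adhesion protein gene next to Tomm40, was higher in AKR/N (0.66, adjusted p = 0.00143) and MRL/MpJ (0.43, adjusted p = 0.0158) than in C57BL/6.

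Among the 34 tested genes that lie up to 3 places from a called gene, limma called 5 higher and 1 lower in MRL/MpJ against C57BL/6. The shares of all genes there were 6.09% and 6.11%. It called 7 higher and 1 lower in AKR/N against C57BL/6 (6.38% and 5.49% of all genes). In MRL/MpJ against AKR/N it called 2 higher and 3 lower (3.67% and 5.06% of all genes). The higher calls in both comparisons with C57BL/6 include Apoc2, which passed the intensity filter only on AKR/N and MRL/MpJ arrays. These counts are therefore not read as a result about the neighbours. The called neighbours were named after their values were seen. Some went against the gene they lie near: Nipsnap3a, near Abca1, was lower in MRL/MpJ than in C57BL/6 (-0.65, adjusted p = 0.00948) and AKR/N (-0.78, adjusted p = 0.00542), and Ubash3b, near Sc5d, was higher than in C57BL/6 in MRL/MpJ (1.22, adjusted p = 0.00526) and AKR/N (1.69, adjusted p = 7e-04). Larp4b, near Idi1, was lower in AKR/N than in C57BL/6 (-0.43, adjusted p = 0.0138) and higher in MRL/MpJ than in AKR/N (0.46, adjusted p = 0.0137), and Pfkp, also near Idi1, was higher in AKR/N than in C57BL/6 (0.25, adjusted p = 0.0456). Fau, near Tm7sf2, was lower in MRL/MpJ than in AKR/N (-0.24, adjusted p = 0.044). Cpe, the carboxypeptidase gene beside Msmo1, was higher than in C57BL/6 in MRL/MpJ by 0.57 (adjusted p = 0.0019) and in AKR/N by 0.43 (adjusted p = 0.00875). Klhl2, the gene on the other side of Msmo1, read at most 29.4 units on any array and was not called. On chromosome X, Cetn2, a centrin gene beside Nsdhl, was higher in AKR/N than in C57BL/6 by 0.59 (adjusted p = 0.0215).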
